A study of Homo sapiens with 12 samples.

Results

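Transcripts of 9 platelet and megakaryocyte genes were followed from hESCs through HEs to HPCs with and without GATA2. The genes were PF4, PPBP, ITGA2B, ITGB3, GP1BA, GP9, GP6, SELP and TUBB1, found by their symbols among the 56266 genes of the deposited expression tables. They occupied 10 rows, because ITGB3 is listed under 2 gene identifiers, and 9 of those rows, 1 for each symbol, passed the filter on low values together with 21543 genes in all. The list was drawn up around PF4, which was chosen by its difference between GATA2-/- and WT HEs, so that difference is given as a description without a test.

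The RNA-Seq data came from 10 libraries in 5 groups of 2 replicates, made from H1, an established human embryonic stem cell line, and from the H1-derived line in which a neomycin cassette driven by the PGK promoter took the place of an exon of GATA2 on both alleles. The groups were undifferentiated GATA2-/- hESCs, WT HEs, GATA2-/- HEs, WT HPCs and GATA2-/- HPCs, and the 2 WT hESC samples were not analysed here. HEs, the endothelial cells from which blood cells arise, were sorted as CD34+CD31+CD43- cells at day 8 and HPCs as CD34+CD43+ cells at day 9 of co-culture on mouse OP9 stromal cells. The GATA2-/- line is 1 clone, so effects of GATA2 and of that clone cannot be told apart. Nothing in the labels says that the replicates came from separate cultures, and p-values then measure the spread between these libraries, which may be technical. The file headers of replicate 2 in all 4 HE and HPC groups share a suffix that replicate 1 lacks, and those of the 2 hESC libraries differ from each other, and what these marks stand for is not given in the sources used here. GATA2 itself was listed at 106.8 and 78.03 TPM in WT HEs and at 110.9 and 94.06 TPM in GATA2-/- HEs. In HPCs it was listed at 290.1 and 204.2 TPM in WT and at 112.5 and 83.82 TPM in GATA2-/- cells, and since a gene-level value also counts an aberrant mRNA from the disrupted locus, it does not check the labels.

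Values are TPM, a transcript abundance scaled for transcript length and to the same total in every library, so levels can be set side by side between genes. Read numbers are unknown. Tests were run with limma on log2(TPM + 1) over all 10 libraries, and a gene was called at a Benjamini-Hochberg adjusted p under 0.05. A difference on this scale understates the change of a gene with low values, and no fold is given against a group listed at 0.

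Megakaryocytes are the large marrow cells that shed platelets, the cell fragments that start clotting. Their alpha granules store chemokines such as PF4 and PPBP, and P-selectin (SELP) sits in the granule membrane until activation brings it to the surface. Platelets bind fibrinogen through the integrin of ITGA2B and ITGB3, von Willebrand factor through the GPIb-IX-V complex, which includes GP1BA and GP9, and collagen through GP6. TUBB1 is the beta-tubulin of the marginal band that gives platelets their disc shape. Transcription of this gene set in megakaryocytes is known to rest on GATA1 and its cofactor ZFPM1 (FOG1) together with FLI1, RUNX1, GFI1B and NFE2, and GATA2 is expressed ahead of GATA1 in the progenitors. ITGA2B, the surface antigen CD41, also marks the earliest blood cells to leave the endothelium, and SELP is made by endothelial cells too.

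Markers followed the labels of the stages. The summed TPM of 12 endothelial markers was 4160.5 to 5091.66 in the 4 HE libraries and 1052.14 to 1407.41 in the 4 HPC libraries, and that of 10 pan-hematopoietic markers was 331.47 to 403.99 in HEs, where PTPRC (CD45) was listed at 0, and 632.93 to 979.82 in HPCs. The 8 pluripotency markers summed to 6197.85 and 5443.33 in hESCs and to 223.43 to 375.36 elsewhere. The HPC libraries were rich in erythroid markers, whose 13 genes summed to 5594.08 and 15047.05 in WT and to 8540.06 and 16811.43 in GATA2-/- HPCs, while the 9 platelet and megakaryocyte genes summed to 1686.24 and 1876.84 in WT and to 1145.33 and 1597.87 in GATA2-/- HPCs. Macrophage and granulocyte markers were low, with a summed TPM of at most 112.65 in any library, and S100A8, PRTN3 and ELANE were listed at 0 in every HE and HPC library.

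**Figure D1:**
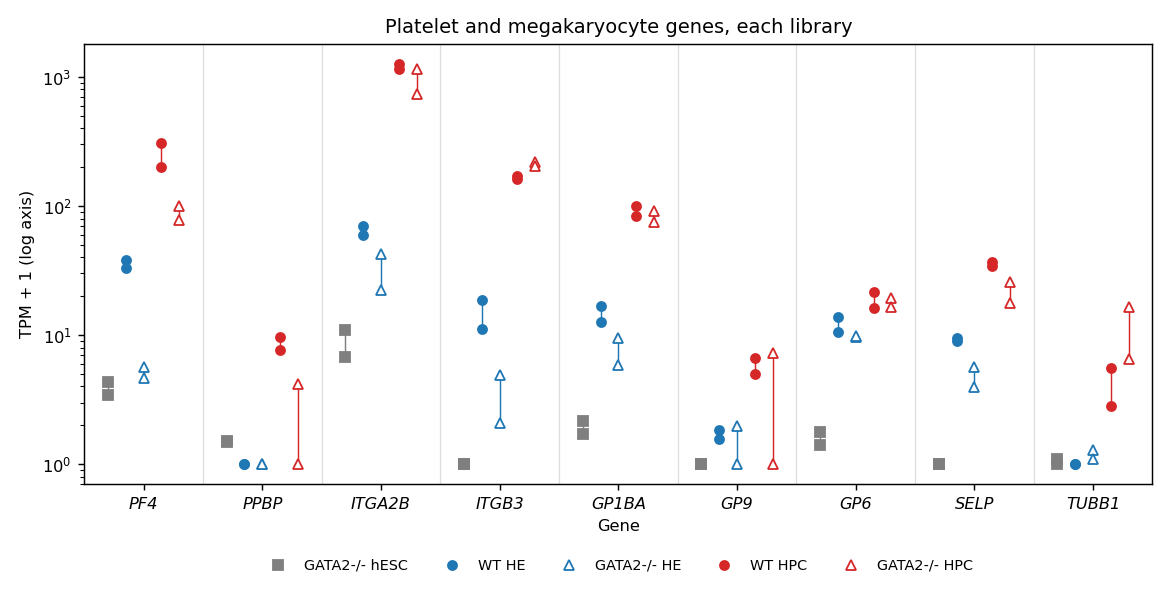
TPM + 1 on a log axis for each of the 9 genes, with 1 point per library, the 2 replicates of a group joined by a line, and groups coloured by stage (blue HE, red HPC) with filled circles for WT and open triangles for GATA2-/-, and grey squares for GATA2-/- hESCs. ITGA2B reached 736.13 to 1257.66 TPM in HPCs, PF4 was the second highest gene in WT HPCs, and PPBP, GP9 and TUBB1 stayed at 15.48 TPM or below in every library.

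PF4 (platelet factor 4, a chemokine of the alpha granule that binds heparin) is a minus-strand gene of chromosome 4 (GRCh37, bases 74846528 to 74847744). It was listed at 2.42 and 3.30 TPM in GATA2-/- hESCs, at 37.33 and 32.12 TPM in WT HEs, at 3.66 and 4.70 TPM in GATA2-/- HEs, at 199.58 and 307.34 TPM in WT HPCs and at 76.54 and 99.51 TPM in GATA2-/- HPCs. Both GATA2-/- libraries were below both WT libraries at each stage, and the GATA2-/- HEs were little above the hESCs. The difference between GATA2-/- and WT HEs, which chose the gene, was -2.79 on the log2 scale, and between GATA2-/- HEs and GATA2-/- hESCs it was 0.43. In bulk RNA, fewer cells that express a gene and less RNA per cell cannot be told apart, here and for every gene described.

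PPBP, which encodes the precursor of the neutrophil-attracting chemokine NAP-2, lies next to PF4 on the minus strand of chromosome 4 from 74852156 to 74853907. It was listed at 0.51 and 0.49 TPM in hESCs, at 0 in all 4 HE libraries, at 6.72 and 8.63 TPM in WT HPCs and at 0 and 3.15 TPM in GATA2-/- HPCs. Only HPC libraries reached 1 TPM, and 1 of the 2 GATA2-/- HPC libraries was at 0, so PPBP, like PF4, was lower in both GATA2-/- HPC libraries, and it was listed at 0 in the HEs. PF4V1, a near copy of PF4 at chromosome 4 from 74719013 to 74720200 on the plus strand, was listed at 0 in all 4 HE libraries, at 0 and 10.01 TPM in WT HPCs and at 2.12 and 8.25 TPM in GATA2-/- HPCs, and its groups overlapped. Of the 744 windows of 30 bases along the PF4 transcript, 103 (13.84%) were identical to a window of PF4V1. With up to 2 mismatches, which the authors' mapping allowed, 242 (32.53%) matched one. Reads there could be assigned to either gene.

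ITGA2B (integrin alpha-IIb, CD41), on chromosome 17 from 42449548 to 42467017 on the minus strand, had the highest level of the 9 genes in every library. It was listed at 5.81 and 10 TPM in hESCs, at 69.07 and 59.01 TPM in WT HEs, at 41.20 and 21.54 TPM in GATA2-/- HEs, at 1147.41 and 1257.66 TPM in WT HPCs and at 736.13 and 1140.18 TPM in GATA2-/- HPCs. The GATA2-/- libraries lay below the WT libraries at both stages, narrowly so in HPCs. ITGB3 (integrin beta-3), the partner of ITGA2B in the fibrinogen receptor, on chromosome 17 from 45331193 to 45391109 on the plus strand, went from 17.60 and 10.15 TPM in WT HEs and 3.87 and 1.08 TPM in GATA2-/- HEs to 170.73 and 161.39 TPM in WT HPCs and 217.94 and 202.95 TPM in GATA2-/- HPCs, and was listed at 0 in hESCs. It was the 1 gene of the 9 whose GATA2-/- libraries were both below WT in HEs and both above WT in HPCs. The ratio of ITGB3 to ITGA2B was 0.255 and 0.172 in WT HEs, 0.0939 and 0.0501 in GATA2-/- HEs, 0.149 and 0.128 in WT HPCs and 0.296 and 0.178 in GATA2-/- HPCs, so the 2 subunits did not keep 1 proportion. The second ITGB3 row, ENSG00000259753, which is a readthrough transcript in GENCODE, was at 0.88 TPM or below in every library.

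GP1BA, the chain of the GPIb-IX-V complex that binds von Willebrand factor, on chromosome 17 from 4835572 to 4838318 on the plus strand, was listed at 1.16 and 0.70 TPM in hESCs, at 15.86 and 11.65 TPM in WT HEs, at 8.57 and 4.86 TPM in GATA2-/- HEs, at 99.20 and 82.90 TPM in WT HPCs and at 74.03 and 90.01 TPM in GATA2-/- HPCs. Its GATA2-/- libraries were below WT in HEs, while the groups overlapped in HPCs. GP9, a smaller chain that the complex needs to reach the surface, on chromosome 3 from 128779622 to 128781249 on the plus strand, was listed at 0 in hESCs, at 0.56 and 0.83 TPM in WT HEs, at 0.99 and 0 TPM in GATA2-/- HEs, at 4.04 and 5.62 TPM in WT HPCs and at 0 and 6.31 TPM in GATA2-/- HPCs. The 2 GATA2-/- HPC libraries thus held both the lowest and the highest GP9 value of the 4 HPC libraries. GP1BB, the chain linked to GP1BA by disulphide bonds, was higher in both GATA2-/- HE libraries and lower in both GATA2-/- HPC libraries than in WT, with 5.58 and 7.32 TPM in WT HEs, 14.97 and 11.13 TPM in GATA2-/- HEs, 26.72 and 26.00 TPM in WT HPCs and 18.69 and 19.18 TPM in GATA2-/- HPCs.

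GP6, the collagen receptor of platelets, on chromosome 19 from 55525073 to 55549632 on the minus strand, was listed at 0.42 and 0.79 TPM in hESCs, at 12.82 and 9.55 TPM in WT HEs, at 8.72 and 8.78 TPM in GATA2-/- HEs, at 20.66 and 15.20 TPM in WT HPCs and at 18.42 and 15.61 TPM in GATA2-/- HPCs. It had the flattest course of the 6 genes that were above 1 TPM in each HE library, with overlapping genotypes in HPCs. SELP, on chromosome 1 from 169558087 to 169599431 on the minus strand, was listed at 0 in hESCs, at 8.06 and 8.54 TPM in WT HEs, at 4.71 and 2.94 TPM in GATA2-/- HEs, at 36.09 and 33.49 TPM in WT HPCs and at 16.73 and 24.67 TPM in GATA2-/- HPCs. Its GATA2-/- libraries were below WT at both stages. VWF, which shares both the endothelial and the platelet storage granules with P-selectin, ran the other way, with 45.35 and 56.37 TPM in WT HEs, 71.78 and 71.94 TPM in GATA2-/- HEs, 4.06 and 5.02 TPM in WT HPCs and 9.46 and 8.48 TPM in GATA2-/- HPCs.

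TUBB1, on chromosome 20 from 57594484 to 57601709 on the plus strand, was listed at 0 and 0.10 TPM in hESCs, at 0 in both WT HE libraries, at 0.28 and 0.09 TPM in GATA2-/- HEs, at 1.81 and 4.61 TPM in WT HPCs and at 5.54 and 15.48 TPM in GATA2-/- HPCs. It was the 1 gene of the 9 with both GATA2-/- libraries above both WT libraries at both stages, although its HE values were under 1 TPM. TUBB1 shares 1180 exonic bases, 35.53% of its own, with ATP5F1E on the opposite strand. ATP5F1E, a subunit of the mitochondrial ATP synthase, was listed at 106.36 to 180.79 TPM in every library, including those with TUBB1 at 0.

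In order of level, ITGA2B was followed in WT HEs by PF4, then by ITGB3, GP1BA and GP6, of which ITGB3 and GP1BA, and GP1BA and GP6, overlapped between replicates, and then by SELP, GP9, PPBP and TUBB1. In GATA2-/- HEs PF4 fell from the second to the fourth place, behind GP6 and GP1BA, and its replicates overlapped those of SELP. In WT HPCs the order was ITGA2B, PF4, ITGB3, GP1BA, SELP, GP6, PPBP, GP9 and TUBB1, and only GP9 and TUBB1 overlapped. In GATA2-/- HPCs ITGB3 stood between ITGA2B and PF4, and PF4 overlapped GP1BA.

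The place of PF4 among its companions differed with genotype at both stages. PF4 made up 23.1% and 24.4% of the summed TPM of the 9 genes in WT HEs and 5.08% and 10.7% in GATA2-/- HEs, and it made up 11.8% and 16.4% in WT HPCs and 6.68% and 6.23% in GATA2-/- HPCs. Relative to ITGA2B, PF4 was at 0.541 and 0.544 in WT HEs, 0.0888 and 0.218 in GATA2-/- HEs, 0.174 and 0.244 in WT HPCs and 0.104 and 0.0873 in GATA2-/- HPCs. Relative to GP1BA it was at 2.35 and 2.76 in WT HEs, 0.427 and 0.967 in GATA2-/- HEs, 2.01 and 3.71 in WT HPCs and 1.03 and 1.11 in GATA2-/- HPCs. None of these ratios overlapped between genotypes within a stage. They are descriptions, and the HE ratios rest on the values that chose PF4.

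**Figure D2:**
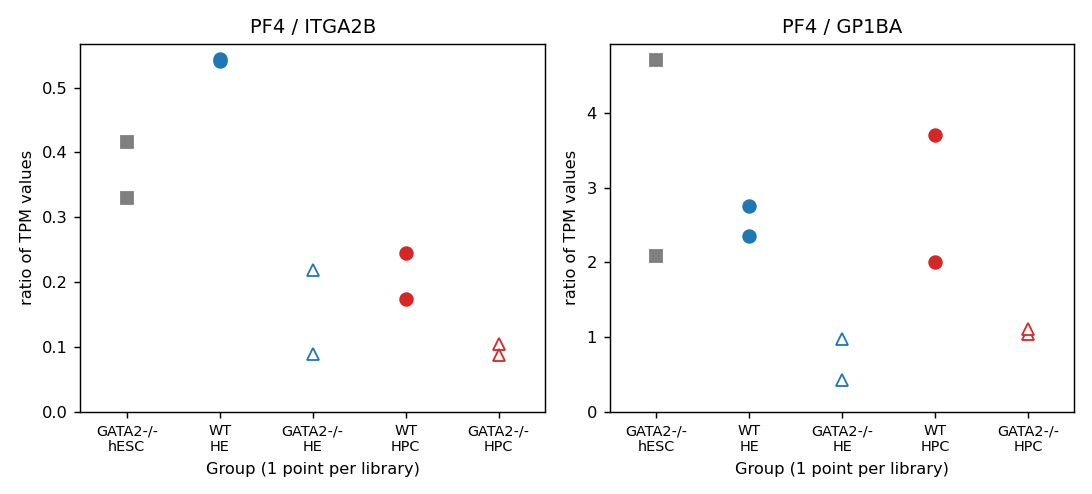
Ratio of the TPM of PF4 to that of ITGA2B (left) and of GP1BA (right) in each of the 10 libraries, 1 point per library, with linear axes from 0. Both ratios were lower in the 2 GATA2-/- libraries than in the 2 WT libraries of the same stage, and the PF4 to ITGA2B ratio of WT HEs, 0.541 and 0.544, was the highest of the 5 groups.

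The genotype comparison within HPCs, whose difference rests on none of the libraries that chose PF4, addressed whether the genes differed without GATA2 once CD43+ cells had formed. Its standard errors and p-values come from the fit of all 10 libraries, which includes the HE libraries. Those of PF4 are therefore not independent of its choice, here and between GATA2-/- hESCs and HPCs below. None of the 9 genes was called (limma, Benjamini-Hochberg), where 13 of 21543 genes, 0.0603%, were called in either direction. At an unadjusted p under 0.05, 4 of the 9 were below the threshold, PF4, PPBP, SELP and TUBB1, against 8.94% of all tested genes. Both GATA2-/- libraries were below both WT libraries for 4 of the 9, PF4, PPBP, ITGA2B and SELP, against 13% of all tested genes, and above them for 2, ITGB3 and TUBB1, against 19.7%. PPBP and GP9 reached 1 TPM only in the WT HPC libraries and in GATA2-/- HPC replicate 2, so they passed the filter through WT HPCs. The filter thus favoured lower GATA2-/- values for them, and the place of PPBP in these counts is a description.

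PF4 had the smallest unadjusted p of the 9, with that limit. Its mean was 88.0 ± 16.2 TPM (SD, n = 2) in GATA2-/- HPCs and 253 ± 76.2 TPM (SD, n = 2) in WT HPCs, a log2 difference of -1.49 (standard error 0.27, 95% interval -2.10 to -0.89, limma adjusted p = 0.153), 2.82-fold lower on the scale of TPM + 1. All 4 pairs of libraries showed this direction, by -1.37 between the libraries with replicate number 1 and by -1.62 between those with number 2. The same difference was -1.44 (limma adjusted p = 0.213) when PF4 and PF4V1 were summed.

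The log2 difference of PPBP was -2.08 (standard error 0.59, limma adjusted p = 0.321), and that of SELP was -0.75 (standard error 0.31, limma adjusted p = 0.521). The receptors ITGA2B, GP1BA and GP6 differed by -0.39, -0.15 and -0.06, each with a 95% interval that included 0 (-1.16 to 0.38, -0.83 to 0.53 and -0.72 to 0.60). ITGB3 differed by 0.34 (95% interval -0.55 to 1.23) and TUBB1 by 1.39 (standard error 0.51, limma adjusted p = 0.465). GP9 differed by -1.10 (standard error 0.80), which became 0.34 without GATA2-/- HPC replicate 1, the library where both GP9 and PPBP were listed at 0. Without that library PPBP differed by -1.06 and stayed uncalled.

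Other features moved with genotype in the HPC libraries, and their part in these differences was not tested. Mitochondrially encoded transcripts took 8.66% and 9.61% of TPM in WT HPCs and 15.1% and 14.8% in GATA2-/- HPCs. The pan-hematopoietic markers summed to 979.82 and 932.91 TPM in WT and to 632.93 and 746.06 TPM in GATA2-/- HPCs, and 6 of the 10 were lower in both GATA2-/- libraries than in both WT libraries. None of the 10 was listed at 0. The mast cell and basophil markers summed to 395.79 and 317.44 TPM in WT and to 187.94 and 181.99 TPM in GATA2-/- HPCs. GATA2 itself, the disrupted gene, is 1 of these 8 genes and held most of each WT sum. HDC was the other one lower in both GATA2-/- libraries, and 1 marker was higher in both. KIT went the other way, with a log2 difference of 1.39 (limma adjusted p = 0.205), and CLC, MS4A2 and TPSB2 were listed at 0 in both genotypes. The erythroid sums of the 2 genotypes, given above, overlapped, and within each replicate number the GATA2-/- sum was the higher.

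**Figure D3:**
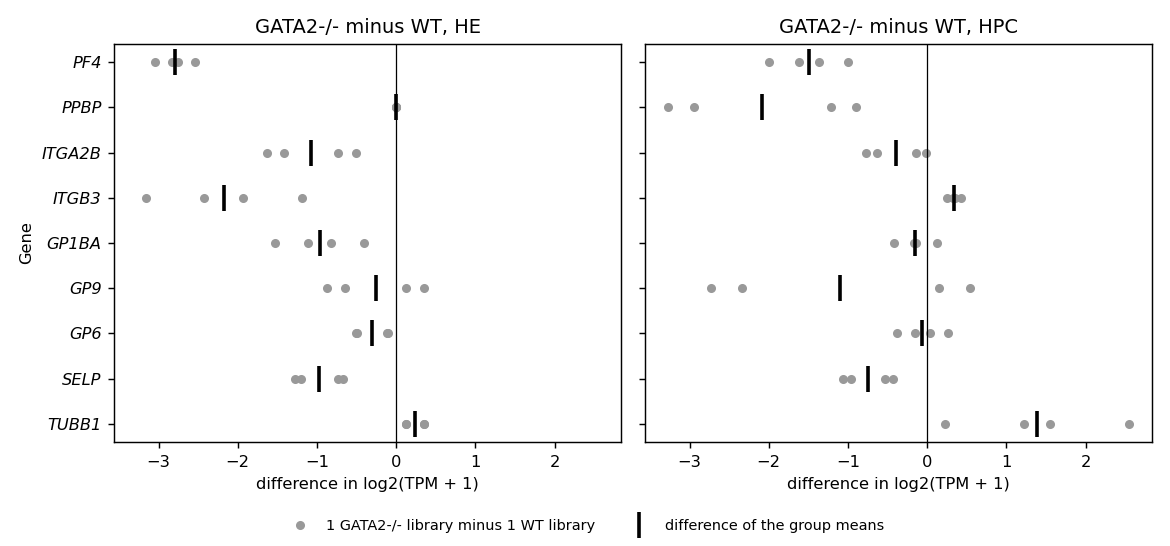
Difference in log2(TPM + 1) between GATA2-/- and WT libraries in HEs (left) and HPCs (right), with 4 grey points for the pairs of 1 GATA2-/- and 1 WT library and a black bar for the difference of the group means. PF4 lay at -2.79 in HEs and -1.49 in HPCs, and ITGB3 at -2.18 in HEs and 0.34 in HPCs.

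Within HEs, the comparison that chose PF4, the members are described without a test. Both GATA2-/- libraries were below both WT libraries for 6 of the 9, PF4, ITGA2B, ITGB3, GP1BA, GP6 and SELP, and the share of all tested genes in that state was 16.5%. Their log2 differences were -2.79 for PF4, -2.18 for ITGB3, -1.07 for ITGA2B, -0.97 for SELP, -0.96 for GP1BA and -0.31 for GP6. PPBP was at 0 throughout and GP9 overlapped, and TUBB1, under 1 TPM, was higher in both GATA2-/- libraries, where 13.8% of all tested genes were. The erythroid markers moved the same way in the same libraries, with sums of 194.29 and 119.69 TPM in WT HEs and 49.39 and 34.41 TPM in GATA2-/- HEs. Of the 13, 8 were lower in both GATA2-/- libraries, SLC4A1 and AHSP were at 0 in both genotypes, HBA2 was at 0 in WT and HBZ was at 0 in GATA2-/- HEs. The macrophage and granulocyte markers summed to 28.63 and 29.86 TPM in WT and to 20.04 and 12.94 TPM in GATA2-/- HEs. Of the 12, 4 were lower and 1 was higher in both GATA2-/- libraries, and S100A8, FCN1, PRTN3 and ELANE were at 0 in both genotypes. Of 6 stromal markers, 4 were lower in both GATA2-/- libraries and none was at 0, and their sums of 674.87 and 508.56 TPM in WT and 573.88 and 365.34 TPM in GATA2-/- HEs overlapped. The endothelial sums were 4160.5 and 4534.08 TPM in WT and 5091.66 and 4684.27 TPM in GATA2-/- HEs, with no marker at 0. Of these 12 markers, 5 were higher in both GATA2-/- libraries than in both WT libraries, and none was lower in both. The part of these markers in the differences was not tested.

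From HEs to HPCs, both subunits of the fibrinogen receptor, GP1BA and SELP rose in WT and in GATA2-/- cells, and GP6 was called in neither. PPBP, TUBB1 and GP9 passed the filter on low values through HPC libraries alone, so that a difference between the stages followed from the filter, and they are described by their levels above without a test. Of the 5 members tested in WT cells, 4 were called higher and none lower (limma), where 3.32% of all tested genes were called higher and 9.91% in either direction. ITGA2B rose 18.5-fold on the scale of TPM + 1 (log2 difference 4.21, standard error 0.34, limma adjusted p = 0.000376), from 64.0 ± 7.11 to 1203 ± 78.0 TPM (SD, n = 2). ITGB3 rose 11.6-fold (limma adjusted p = 0.000981), GP1BA 6.28-fold (limma adjusted p = 0.00103) and SELP 3.85-fold (limma adjusted p = 0.00513). GP6 had a log2 difference of 0.63 (limma adjusted p = 0.243).

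In GATA2-/- cells, 4 of the 5 were called higher, where 5.5% of all tested genes were called higher and 12.7% in either direction. ITGB3 rose 66.4-fold (log2 difference 6.05, standard error 0.39, limma adjusted p = 0.000158), from 2.48 ± 1.97 to 210.4 ± 10.6 TPM (SD, n = 2). The size of this rise depended on the HE libraries, with a log2 difference of 6.67 without GATA2-/- HE replicate 1 and of 5.44 without replicate 2. ITGA2B rose 29.7-fold, GP1BA 11.0-fold and SELP 4.5-fold, with limma adjusted p of 0.000169, 0.000339 and 0.00245. GP6 (log2 difference 0.88, limma adjusted p = 0.0858) was not called. PF4, given without a test because the HE libraries chose it, differed by 2.8 in WT and by 4.1 in GATA2-/- cells on the log2 scale. The larger GATA2-/- differences of PF4, ITGA2B, ITGB3 and GP1BA start from lower HE values that are part of how the set came about, so the difference between genotypes was not tested. With only the 4 libraries of a comparison in the fit, no member was called in either genotype, and neither was any other of the 21543 tested genes.

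**Figure D4:**
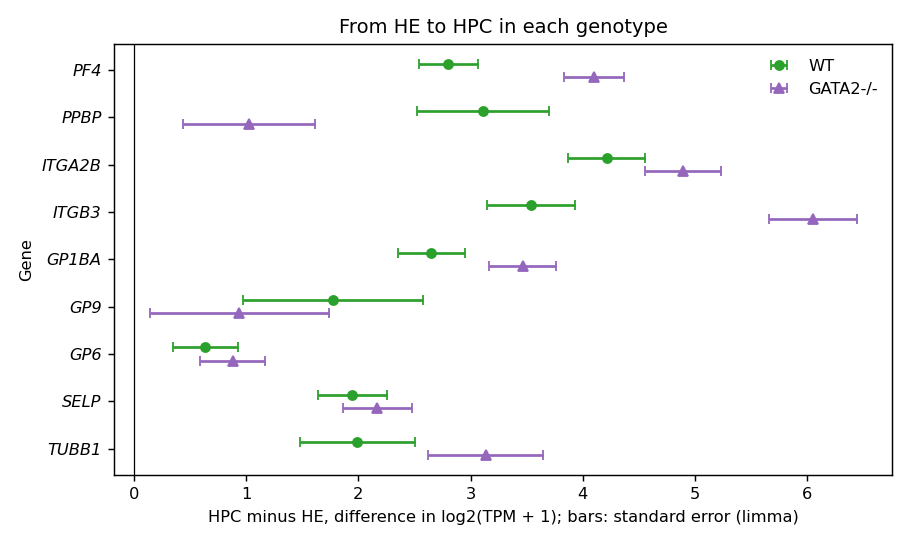
HPC minus HE difference in log2(TPM + 1) for each gene, green circles for WT and purple triangles for GATA2-/-, with bars of 1 standard error from limma. ITGB3 stood at 3.54 in WT and 6.05 in GATA2-/- cells, PF4 at 2.8 and 4.1, and GP6 at 0.63 and 0.88.

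Against undifferentiated GATA2-/- hESCs, all 6 members tested were called higher in GATA2-/- HPCs (PPBP, TUBB1 and GP9 left aside as above), where 14.2% of all tested genes were called higher and 30.6% in either direction. PF4 differed by 4.52 on the log2 scale (standard error 0.27, limma adjusted p = 9.17e-06), ITGA2B by 6.73 (limma adjusted p = 3.99e-06), GP1BA by 5.43 (limma adjusted p = 5.95e-06) and GP6 by 3.49 (limma adjusted p = 5.06e-05). ITGB3 and SELP rose from a listed 0. GATA2-/- HEs were already above hESCs for the 5 members tested, GP6, SELP, GP1BA, ITGA2B and ITGB3, where 13.9% of all tested genes were called higher and 30% in either direction. GP6 differed by 2.61 on the log2 scale (limma adjusted p = 0.000232), and its mean was 8.75 ± 0.0424 TPM in GATA2-/- HEs and 17.0 ± 1.99 TPM in GATA2-/- HPCs (SD, n = 2). The ITGB3 call (log2 difference 1.67, limma adjusted p = 0.012) was lost without either hESC library or GATA2-/- HE replicate 1, and the ITGA2B call (1.83, limma adjusted p = 0.00385) without hESC replicate 1, which left 3 calls.

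The transcription factors of the lineage were then examined. GATA1, which drives megakaryocyte and erythroid genes, was listed at 0 in hESCs, at 18.36 and 12.05 TPM in WT HEs, at 2.78 and 1.37 TPM in GATA2-/- HEs, at 172.30 and 219.59 TPM in WT HPCs and at 142.65 and 182.25 TPM in GATA2-/- HPCs. NFE2, needed for platelet release, was listed at 36.19 and 17.16 TPM in WT HEs, at 7.58 and 2.13 TPM in GATA2-/- HEs, at 209.08 and 206.39 TPM in WT HPCs and at 235.17 and 221.71 TPM in GATA2-/- HPCs. Both were lower in the 2 GATA2-/- HE libraries than in the 2 WT HE libraries, while in HPCs GATA1 overlapped and NFE2 was higher in both GATA2-/- libraries.

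None of the 74 tested genes of 6 lists of megakaryocyte and platelet biology was called between genotypes in HEs, where 0.0186% of all tested genes were called, nor in HPCs (limma), and 15 and 7 of them were below an unadjusted p of 0.05, against 4.85% and 8.94% of all tested genes. GATA1 came closest in HEs, with a log2 difference of -2.41 (standard error 0.31, limma adjusted p = 0.0814), followed by NFE2 at -2.33 (standard error 0.47, limma adjusted p = 0.406). The differences of GATA1 and NFE2 in HPCs were -0.27 and 0.14. The test of whether the genotype difference changed with stage gave 2.14 for GATA1 (standard error 0.43, limma adjusted p = 0.483) and 2.46 for NFE2 (standard error 0.66, limma adjusted p = 0.665), and called none of the 74 genes, 8 of which were below an unadjusted p of 0.05, and none of the 21543, of which 5.95% were.

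RUNX1, required for blood cells to leave the endothelium and later for platelets, was at 77.92 and 65.87 TPM in WT HEs and 44.76 and 19.43 TPM in GATA2-/- HEs. Its HPC values of 326.72 and 197.60 TPM in WT and 360.74 and 228.83 TPM in GATA2-/- cells overlapped. Within each replicate number the GATA2-/- HPC value of RUNX1 was the higher. FLI1, an ETS factor of endothelium and megakaryocytes, kept to 164.44 to 233.27 TPM in all 8 HE and HPC libraries. GFI1B was at 45.80 and 36.55 TPM in WT HEs and 45.68 and 24.80 TPM in GATA2-/- HEs, and at 108.29 to 131.09 TPM in HPCs. TAL1 was at 155.59 to 260.99 TPM over the same 8 libraries, and the genotypes overlapped in both stages.

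The 6 lists were chosen with earlier results of these data known, and their medians are set beside the median of all tested genes, which was -0.01 in HEs and 0.05 in HPCs for GATA2-/- minus WT on the log2 scale. The 13 megakaryocyte transcription factors had a median difference of -0.40 in HEs and 0.14 in HPCs, and the 12 genes of platelet signalling and eicosanoid enzymes had -0.28 and -0.21. The 17 genes of granule cargo and granule formation had -0.28 and -0.03, and the 16 adhesion and activation receptors -0.20 and 0.31. The 10 cytoskeletal genes had -0.02 and -0.07, and the 6 genes of the thrombopoietin pathway 0.03 and 0.26. The 9 members themselves had -0.96 in HEs, the comparison that chose PF4, and -0.39 in HPCs.

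**Figure D5:**
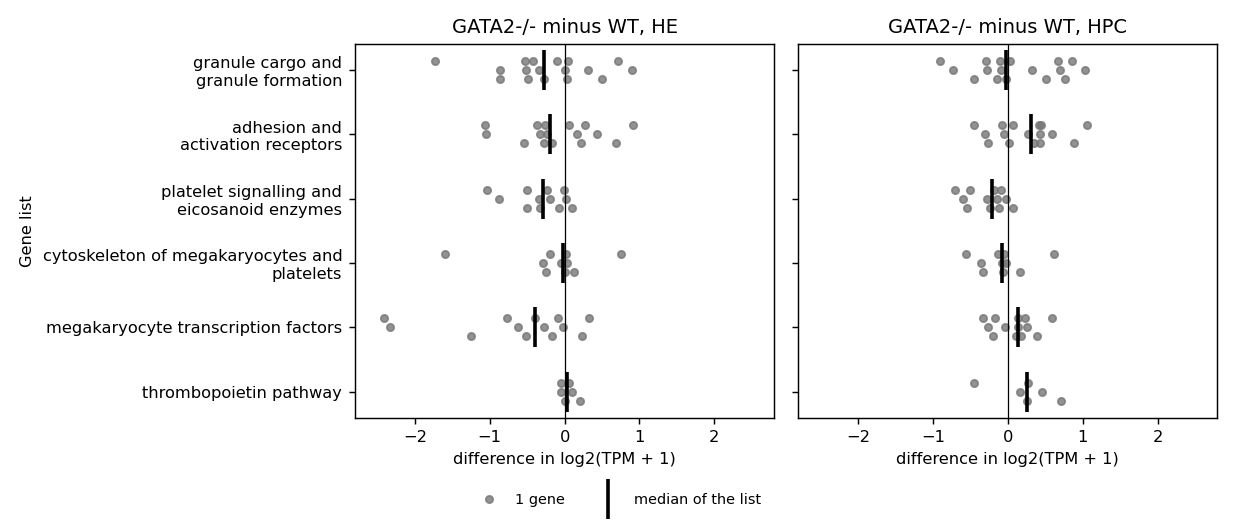
GATA2-/- minus WT difference in log2(TPM + 1) of each tested gene of the 6 lists, in HEs (left) and HPCs (right), with 1 grey point per gene and a black bar for the median of the list. GATA1 and NFE2 stood apart at -2.41 and -2.33 in HEs and lay at -0.27 and 0.14 in HPCs, and no gene of the lists was called in either stage.

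Within HPCs, the genes of each list with the largest differences were examined, none of which was called. Among granule genes, THBS1 (thrombospondin) differed by 1.03 and VWF by 0.85 (standard error 0.24, limma adjusted p = 0.317), while F13A1 (coagulation factor XIII) differed by -0.90 and CLU (clusterin) by -0.73. Among receptors, the tetraspanin CD9 differed by 1.06 and CD36 by 0.88, while GP1BB differed by -0.46 and the thrombin receptor F2R by -0.30. Among signalling genes, VAV1 differed by -0.70 and the lipoxygenase ALOX12 by -0.60, and 11 of the 12 genes of that list had a negative difference, with PTGS1 (cyclooxygenase 1) at 0.07 and LYN at -0.02. TUBA4A, an alpha-tubulin of platelets, was higher in both GATA2-/- libraries at both stages, with 24.50 and 21.38 TPM in WT HEs, 37.58 and 40.92 TPM in GATA2-/- HEs, 81.39 and 95.10 TPM in WT HPCs and 131.78 and 138.06 TPM in GATA2-/- HPCs. Its log2 differences were 0.75 in HEs (limma adjusted p = 0.467) and 0.61 in HPCs (limma adjusted p = 0.306). In the same list TUBA8 differed by -0.56, ZYX by -0.36 and PDLIM1 by 0.16 in HPCs. Among transcription factors ETV6 differed by 0.59, ZFPM1 by 0.39 and MAFK by -0.33. In the thrombopoietin pathway THPO differed by 0.71, the adaptor SH2B3 by 0.16 and STAT5A by -0.45.

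Between WT HEs and WT HPCs, 28 of the 74 genes rose and 8 fell, where 3.32% of all tested genes rose and 6.59% fell. In GATA2-/- cells 29 rose and 7 fell, where 5.5% rose and 7.24% fell (limma adjusted p under 0.05). Among the 74, PLEK, GP5, PF4V1, F13A1 and THPO reached 1 TPM in fewer than 2 libraries outside HPCs. They passed the filter through HPC libraries, so any rise of theirs followed in part from the filter. Without WT HE replicate 1 or 2 or WT HPC replicate 2, fewer of the 74 were called in WT, and fewer of all tested genes were too. The signalling adaptor PLEK (pleckstrin), given without a test for that reason, was listed at 0.52 and 0.39 TPM in WT HEs and 40.41 and 62.98 TPM in WT HPCs. In WT GATA1 rose by 3.62 on the log2 scale (limma adjusted p = 0.000434), the ATP-gated channel P2RX1 by 3.07 (limma adjusted p = 0.000633), NFE2 by 3.01 (limma adjusted p = 0.00475) and the inhibitory receptor C6orf25 (G6b) by 2.87 (limma adjusted p = 0.000754). SRGN (serglycin), TBXAS1 (thromboxane synthase), TUBA4A, CLU and STAT5A also rose, by 2.43, 1.87, 1.90, 1.78 and 1.24. Of those that fell, CD9 differed by -3.66, PDGFA by -3.40 and VWF by -3.22, and MECOM and ACTN1 by -2.11 and -0.95. ITGA2 (-1.30), SH2B3 (-0.71), FLI1 (-0.29), MYL9 (-0.45), LCP2 (0.50), LYN (0.36), STAT5B (0.22) and TUBA8 (0.87) were not called.

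Over all 10 libraries, the genes whose log2(TPM + 1) followed PF4 most closely among 21542 others were SLC25A20 (Pearson's r = 0.971), GATA1 (0.970), SFRP5 (0.969), GSTA2 (0.968), WNT5B (0.968), AKR1C1 (0.968), RP11-480G7.1 (0.966), AMHR2 (0.965), C1orf95 (0.963) and TXNIP (0.963). SLC25A20 carries acylcarnitines into mitochondria, SFRP5 is a secreted Wnt antagonist and WNT5B a Wnt ligand. SFRP5 was listed at 27.3 and 15.88 TPM in WT HEs, 5.72 and 1.7 TPM in GATA2-/- HEs, 159.25 and 146.4 TPM in WT HPCs and 78.79 and 65.76 TPM in GATA2-/- HPCs, the order that PF4 had among these 4 groups. ITGB3 ranked 50th (r = 0.946), ITGA2B 61st (0.944), GP1BA 92nd (0.935) and SELP 100th (0.931), and GP6, GP9, TUBB1 and PPBP ranked from 951st to 1540th. These values describe 10 points that share 3 stages and 2 genotypes.

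The stretches of 250 bases upstream of the start sites were searched for short motifs of the factors above, because ITGA2B, ITGB3, GP1BA and SELP rose in both genotypes. RefSeq promoter entries (GRCh38.p14) were matched for 6 of the 9 members, PPBP, ITGA2B, GP9, GP6, SELP and TUBB1. PF4, ITGB3 and GP1BA were not searched, so of the genes called higher in both genotypes the counts below cover only ITGA2B and SELP. The GATA motif was any of AGATAA or TGATAA or AGATAG or TGATAG, the ETS motif was AGGAAG or the variant CGGAAG, and the RUNX motif was TGTGGT or the variant TGCGGT, each searched on both strands. The 4 sequences with a GATA match are shown 5′ to 3′ on the strand of the gene, from 250 bases before the start to the last base before it, with every match of the 3 kinds in capitals. They are chr4:73988191-73988440, chr17:44389650-44389899, chr19:55038265-55038514 and chr1:169630125-169630374, all on the minus strand.
PPBP: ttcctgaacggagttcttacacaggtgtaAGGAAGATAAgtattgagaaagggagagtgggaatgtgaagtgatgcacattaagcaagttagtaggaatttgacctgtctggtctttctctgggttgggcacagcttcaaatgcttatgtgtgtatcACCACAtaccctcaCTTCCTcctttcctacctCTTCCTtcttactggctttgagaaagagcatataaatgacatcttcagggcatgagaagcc
ITGA2B: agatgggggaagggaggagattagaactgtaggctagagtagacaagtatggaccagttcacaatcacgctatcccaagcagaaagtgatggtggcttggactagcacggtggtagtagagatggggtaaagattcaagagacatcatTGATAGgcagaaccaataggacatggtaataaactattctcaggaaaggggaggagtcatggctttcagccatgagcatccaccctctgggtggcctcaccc
GP6: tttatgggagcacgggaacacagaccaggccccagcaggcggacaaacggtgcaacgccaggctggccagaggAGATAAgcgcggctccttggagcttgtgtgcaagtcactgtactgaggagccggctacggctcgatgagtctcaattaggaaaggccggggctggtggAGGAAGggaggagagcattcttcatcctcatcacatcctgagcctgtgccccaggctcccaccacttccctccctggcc
SELP: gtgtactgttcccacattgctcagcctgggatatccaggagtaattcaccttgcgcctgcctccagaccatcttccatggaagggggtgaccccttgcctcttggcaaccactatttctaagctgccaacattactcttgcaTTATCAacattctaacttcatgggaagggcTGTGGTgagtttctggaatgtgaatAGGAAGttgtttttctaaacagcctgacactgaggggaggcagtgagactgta

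In PPBP the GATA match lay 217 to 212 bases before the start and overlapped an ETS match at 221 to 216, further ETS matches lay at 79 to 74 and 61 to 56, and a RUNX match at 93 to 88. In ITGA2B the single match was a GATA motif at 102 to 97. GP6 held a GATA match at 177 to 172 and an ETS match at 79 to 74, and SELP held a GATA match at 108 to 103, a RUNX match at 78 to 73 and an ETS match at 53 to 48. GP9 held 2 ETS matches and a RUNX match but no GATA match, and TUBB1 held none of the 3. Thus 4 of 6 members held a GATA match, which 22.33% of 35116 promoter windows of this length held, 4 of 6 an ETS match (40.75%), 3 of 6 a RUNX match (16.31%) and 3 of 6 both a GATA and an ETS match (8.13%). A match is a description of letters, and binding was not measured in these libraries.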

How the data were processed

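RNA-Seq values of 10 libraries were analysed. The authors made TruSeq libraries, trimmed single-end reads with Trimmomatic, mapped them to hg19 with Bowtie and deposited TPM per gene, in which each library sums to between 998299 and 999106. The submitters' processing notes also name RSEM and the build mm10, and how reads of the mouse OP9 cells were treated is not given in the sources used here. Depth is unknown, so the spread between 2 replicates is the only error. Genes with at least 1 TPM in at least 2 libraries were tested as log2(TPM + 1) in R 4.3.3 by the package limma, version 3.58.1 (a linear model of the 5 groups in 1 fit, contrasts between them, eBayes with trend, Benjamini-Hochberg over 21543 genes, threshold 0.05), after a check on simulated data. Joins, sums, correlations and motif searches used Python 3.11.15, pandas 2.3.3 and numpy 2.4.6. Positions are from GENCODE v44lift37 on GRCh37. Promoter sequences are from RefSeq on GRCh38.p14, and no coordinates were converted.

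The 9 members, the 6 lists and the 7 marker lists were chosen with earlier results of these data known. Named genes were all members, the regulators and relatives GATA1, FLI1, NFE2, GFI1B, RUNX1, TAL1, VWF and PF4V1, genes of the lists called between genotypes, the 2 largest rises and 2 largest falls per list within HPCs between genotypes and within WT between stages, and the 10 genes most correlated with PF4. A gene that this rule names is not reported here. GP1BB in HEs, TUBA4A in HEs and ATP5F1E were described after their values were seen. PF4 has no test of a difference that uses the HE libraries, PPBP, TUBB1 and GP9 have none between stages, and no member has one between genotypes in HEs. The spread in the PF4 tests that remain was still estimated with the HE libraries. The alternatives were a pseudocount of 0.1, no filter, only the libraries of the comparison, quantile normalization, eBayes without trend, a replicate block and each library left out. Added after seeing the data were the HE and HPC libraries only, with and without the block, and PF4 summed with PF4V1.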

Additional observations from a re-analysis of the deposited data

Results flagged for a closer look

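ITGB3 was singled out because both GATA2-/- HE libraries (3.87 and 1.08 TPM) lay below both WT HE libraries (17.60 and 10.15 TPM), while both GATA2-/- HPC libraries (217.94 and 202.95 TPM) lay above both WT HPC libraries (170.73 and 161.39 TPM). The genotype difference in HPCs exceeded that in HEs by 2.52 on the log2 scale. The HE values belong to the comparison behind the choice of the genes, and the difference between the stages was not tested. Among the tested genes of the 6 lists, LTBP1, PDLIM1, NFE2, MMRN1, MEIS1, P2RY1 and C6orf25 had an opposite order without overlap in the direction of ITGB3. FCER1G and GP1BB had it in the other direction. These genes were picked for that order, so it is a description of them. How many of all tested genes had such an order was not counted, so whether it is unusual is unknown. LTBP1, MMRN1, MEIS1, P2RY1 and FCER1G are named here after their values were seen.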

How the results depend on the processing

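No member was called between genotypes in HPCs, and no gene of the 6 lists between genotypes in either stage or between stages in that difference, under any alternative. PF4 in HPCs stayed between -1.80 and -1.18 on the log2 scale, with limma adjusted p from 0.129 to 0.519. Fitting only the libraries of the comparison left 0 members called from HEs to HPCs in WT and 0 in GATA2-/- cells, and 0 and 0 genes of the lists. It left 3 members called between GATA2-/- HEs and hESCs. Such a fit has fewer samples from which to estimate the spread. Of all 21543 tested genes, it called 0 and 0 from HEs to HPCs and 5055 between GATA2-/- HEs and hESCs. In that last comparison ITGA2B, ITGB3 and GP1BA lost their calls. PPBP was 1 of the 3, as lower in HEs, with 0.51 and 0.49 TPM in hESCs and 0 in both GATA2-/- HE libraries. All these values are under 1 TPM, so that count is not read as a result about PPBP. The counts of members between stages in this paragraph include PPBP, TUBB1 and GP9, whose stage differences the filter fixed, and PF4 only between GATA2-/- hESCs and HPCs. They therefore do not measure how stable the calls of the other members are. Without those genes the main fit called 4 members from HEs to HPCs in WT and 4 in GATA2-/- cells. From GATA2-/- hESCs it called 6 to HPCs and 5 to HEs. With 1 library left out, the members called ranged from 4 to 7 (WT HEs to HPCs), 5 to 7 (GATA2-/- HEs to HPCs), 7 to 9 (GATA2-/- hESCs to HPCs) and 3 to 5 (GATA2-/- hESCs to HEs), and the list genes called from 16 to 33 in WT and 25 to 35 in GATA2-/- cells. Directions turned only for members near 0 or listed at 0 in 1 library. In GATA2-/- cells PPBP differed from hESCs to HPCs by -0.0736 with a pseudocount of 0.1 and by -0.58 to 1.47 with 1 library left out, and from HEs to HPCs by 0.00 to 2.05. GP9 ranged from -2.53 to 0.34 between genotypes in HPCs and from -0.50 to 2.37 from HEs to HPCs in GATA2-/- cells, and GP6 from -0.27 to 0.15 between genotypes in HPCs. The cause was not tested. Over all tested genes, deviations of libraries with the same replicate number were weakly correlated between groups (-0.01 to 0.12). A pairing of single genes was not tested. Between genotypes in HPCs, a replicate block took the genes below an unadjusted p of 0.05 from 1925 to 2235 and the genes called from 13 to 3. With the replicate block, 0 members were called between genotypes in HPCs and 5 between GATA2-/- hESCs and HEs, as without it. TPM keep no read counts, so counting error behind values such as 0 and 3.15 for PPBP cannot be given.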
